A study of Mus musculus with 16 samples.

Results

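The 44 genes described here encode proteins of the nucleolus that make and assemble ribosomes, and all 44 were found by symbol among the 24411 rows of the expression tables. Ribosome production starts when RNA polymerase I transcribes the ribosomal DNA repeats into one long precursor, the 45S pre-rRNA. Small nucleolar ribonucleoproteins (snoRNPs) then modify this precursor, the small subunit processome cleaves it, and the small (40S) and large (60S) subunits are assembled around its products before export. MYC-family transcription factors are well known as activators of genes of this pathway, and an enlarged nucleolus is a familiar feature of fast-growing tumor cells.

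RNA was sequenced from 16 libraries of the Th-MYCN mouse model of neuroblastoma, in which human MYCN is driven by the tyrosine hydroxylase promoter in cells of the sympathetic lineage. The transgenic line is kept on a 129/SvJ background and was crossed with a line (CBB6-Runx1t1tm1Fc/H) in which an insertion inactivates Runx1t1. The labels gave 4 groups of celiac ganglia from 2-week-old animals. They were transgene-free ganglia with wild-type Runx1t1 (4 libraries) or 1 inactivated Runx1t1 copy (3 libraries), and ganglia homozygous for Th-MYCN with wild-type Runx1t1 (3 libraries) or 1 inactivated copy (2 libraries). The fifth group held 4 tumors of Th-MYCN homozygous, Runx1t1 wild-type mice, whose age the labels did not give. Tissue, age and transgene therefore cannot be told apart in a comparison of tumors with transgene-free ganglia, and tissue and age cannot be told apart in a comparison with Th-MYCN ganglia. Against Th-MYCN heterozygous ganglia the Runx1t1 genotype differs as well and cannot be told apart from these. The human transgene itself had no row in the tables.

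Library totals ran from 10692299 to 38618757 expected counts. All 4 tumors and the ganglia numbered replicate 3 or 4 were above 20000000. The ganglia numbered replicate 1 or 2, among them both Th-MYCN heterozygous ones, were below it. The lowest totals were those of transgene-free wild-type replicate 2, at 10692299, and Th-MYCN wild-type replicate 1, at 11240429. Runx1t1, the targeted gene, was measured at 2.78 to 4.41 TPM (a length-corrected share of all transcripts) in transgene-free ganglia labelled wild type and at 4.36 to 6.28 TPM in those labelled heterozygous. In Th-MYCN ganglia it was 7.9 to 70.34 TPM in those labelled wild type and 8.83 to 16.86 TPM in those labelled heterozygous. Runx1t1 RNA was thus not lower in the transgene-free heterozygous libraries than in the wild-type ones, and whether the counted reads include transcripts of the inactivated copy is not stated. Sympathetic neuron markers summed to 5668 to 15463 TPM in ganglia and 2403 to 4082 TPM in tumors, and glial markers to 469.3 to 1883 TPM and 13.03 to 19.97 TPM. Transgene-free wild-type replicate 2 stood apart: its lymphocyte markers summed to 738.7 TPM, against 3.53 to 20.65 TPM in the other 15 libraries. Tumor 3 held 2497 TPM of Alb, the liver's albumin, against 0.61 to 164.51 TPM in the other 15.

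The position of the 13 members followed library by library is given here on GRCm38, as annotated in GENCODE vM21. Nop56 is at chr2:130274430-130279313, Fbl at chr7:28169710-28179269, Nhp2 at chr11:51619735-51623714 and Dkc1 at chrX:75095854-75109777. Ubtf is at chr11:102304560-102319742, Polr1c at chr17:46243920-46248054, Nop14 at chr5:34638536-34660148 and Rrp9 at chr9:106475963-106485424. Ltv1 is at chr10:13178140-13193168, Rrs1 at chr1:9545408-9547455 and Rrp1b at chr17:32036100-32062865. Npm1 is at chr11:33152287-33163206 and Mybbp1a at chr11:72441355-72451768.

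Transcripts of the nucleolar genes were highest in the tumors. The median member stood at 5.66, 6.24, 6.18 and 6.30 log2(TPM + 1) in tumors 1 to 4, against 4.73 to 5.13 in the 4 transgene-free wild-type ganglia. Together the 44 genes took 4673, 6773, 6718 and 6856 TPM in the tumors, and 1805, 2654, 1754 and 1779 TPM in these ganglia. The 3 transgene-free heterozygous ganglia held 1720 to 1856 TPM and the 2 Th-MYCN heterozygous ganglia 1766 and 2125 TPM. The 3 Th-MYCN wild-type ganglia were spread widely, at 3671, 1912 and 2945 TPM. No ganglion reached the lowest tumor in summed TPM, and tumor 1 was below the other three. In bulk RNA a change in the share of cells of a type and a change in RNA per cell cannot be told apart.

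**Figure D1:**
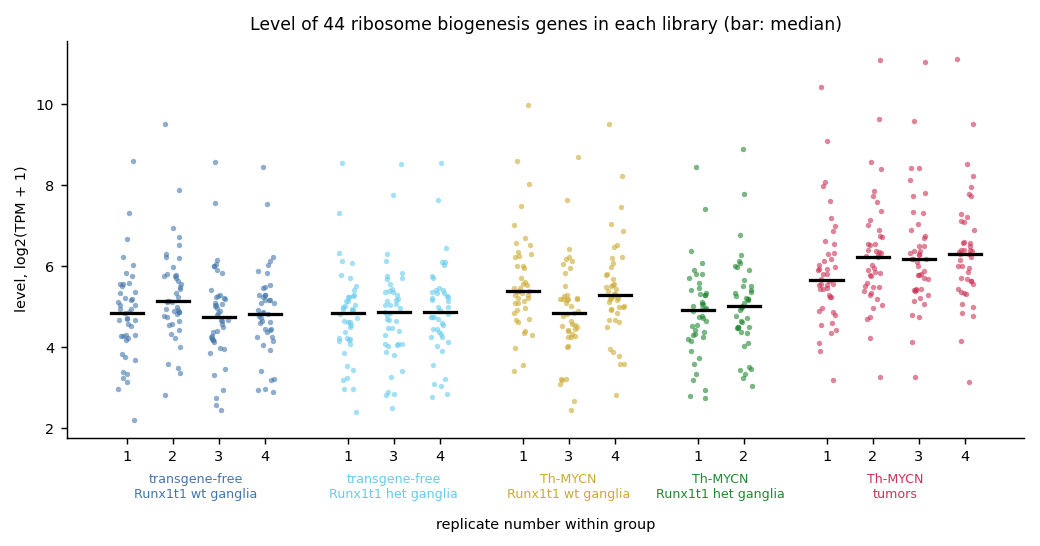
Level of the 44 genes in each of the 16 libraries, in log2(TPM + 1), with one point per gene and a bar at the median, by group and replicate number. The 4 tumor medians run from 5.66 to 6.30 and lie above the medians of all 12 ganglia, of which Th-MYCN wild-type replicates 1 and 4 are the highest at 5.39 and 5.29.

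The first comparison set tumors against the ganglia of mice with no transgene. All 44 members were higher in the tumors by edgeR's quasi-likelihood test (Benjamini-Hochberg adjusted p under 0.05 over 16665 genes), where 27.0% of all genes tested were called higher. Log2 fold changes ran from 0.63 for Polr1e to 3.14 for Rrp1b, with a median of 1.60, while the median of all genes tested was -0.11. Against Th-MYCN wild-type ganglia, 42 of 44 members were called higher, with a median of 1.24, where 14.0% of all genes were called higher. Against Th-MYCN heterozygous ganglia, 42 of 44 were again called higher, with a median of 1.79, where 22.0% of all genes were called higher. The tumors are the same 4 libraries in the 3 comparisons, so these counts are not independent. Without tumor 3, the library with Alb, 43, 40 and 42 members were called higher in the order of these comparisons, beside 25.5%, 12.1% and 20.9% of all genes. Against transgene-free wild-type ganglia 44 were called without tumor 1, beside 26.2% of all genes, and 43 without transgene-free wild-type replicate 2, beside 29.1%.

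The groups also separated library by library. For 30 of 44 members (68.2%), all 4 tumors lay above all 12 ganglia in TPM, which held for 6.06% of the genes tested. The other 14 were spread over every role group except the box C/D core and the abundant nucleolar proteins. In most of these, a single ganglion reached the lowest tumor: Th-MYCN wild-type replicate 1 for Polr1a, Rrn3, Utp18, Wdr3 and Rrs1, transgene-free wild-type replicate 2 for Heatr1 and Ddx10, and transgene-free wild-type replicate 1 for Bop1. Rrp12 and Nop10 overlapped most, with 10 and 8 ganglia at or above their lowest tumor.

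The choice of scale matters to the size of these differences. TPM is a share of all transcripts, and the median difference of all genes tested in mean log2(TPM + 1) was -0.36 between tumors and transgene-free wild-type ganglia. On that scale the members' differences ran from 0.19 to 2.60 with a median of 1.22, and all 44 were above the median of all genes. Against Th-MYCN wild-type ganglia, 43 of 44 members were higher on the TPM scale, the exception being Nop10 at -0.03, and all 44 were above the median of all genes of -0.29.

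**Figure D2:**
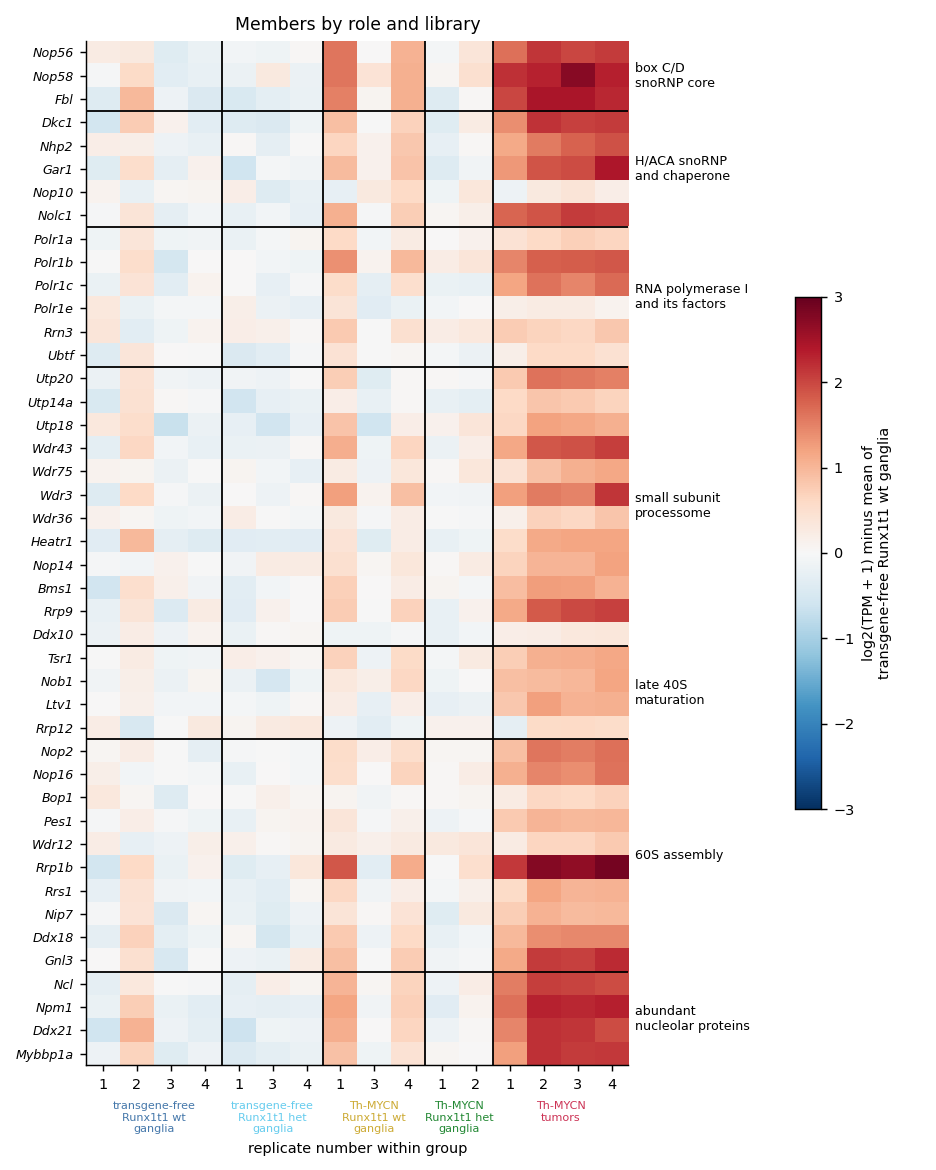
Difference of each member (rows, ordered by role) from its mean in transgene-free wild-type ganglia, in log2(TPM + 1), for each library (columns), on a colour scale from -3 to 3. Tumors are red in nearly every row, Th-MYCN wild-type replicates 1 and 4 are red in many, and Nop10, Polr1e, Ddx10 and Rrp12 change least.

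Core proteins of the box C/D snoRNPs had the largest group median against transgene-free wild-type ganglia. These particles place ribose methyl groups on rRNA, with Fbl (fibrillarin) as the methyltransferase and Nop56 and Nop58 as scaffold proteins. All 3 genes rose against transgene-free wild-type ganglia, with a median log2 fold change of 2.60, and all 3 rose against Th-MYCN wild-type ganglia, with a median of 1.66. Fbl measured 46.47, 121.52, 55.5 and 45.33 TPM in transgene-free wild-type ganglia and 251.57, 337.76, 341.61 and 296.4 TPM in tumors. Its lowest tumor was therefore above its highest ganglion, the 177.78 TPM of Th-MYCN wild-type replicate 1. The edgeR log2 fold change of Fbl against transgene-free wild-type ganglia was 2.60 (SE 0.375, adjusted p = 6.82e-05). Nop56 measured 101.01, 103.99, 65.69 and 73.37 TPM in those ganglia and 268.72, 376.99, 340.14 and 364.89 TPM in tumors. Its lowest tumor was just above the 260.73 TPM of Th-MYCN wild-type replicate 1. Nop58 was 42.7 ± 13.5 TPM (SD, n = 4) in transgene-free wild-type ganglia and 224 ± 38.8 TPM (SD, n = 4) in tumors.

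The H/ACA snoRNPs turn uridines of rRNA into pseudouridine. Dkc1 (dyskerin) is their catalytic subunit, and Nhp2, Gar1 and Nop10 bind it. Nolc1 is a chaperone of snoRNPs in the nucleolus. All 5 were called higher against transgene-free wild-type ganglia, with a median log2 fold change of 2.33. Against Th-MYCN wild-type ganglia all 5 were positive but only 4 of 5 were called higher, with a median of 1.67. Nhp2 measured 73.95, 73.51, 58.44 and 55.4 TPM in transgene-free wild-type ganglia and 144.51, 191.82, 223.05 and 247.48 TPM in tumors. No ganglion of any group reached its lowest tumor, and the edgeR log2 fold change was 2.06 (SE 0.209, adjusted p = 5.89e-06). Dkc1 measured 11.89, 30.95, 19.62 and 14.29 TPM in these ganglia and 48.99, 83.74, 78.2 and 80.88 TPM in tumors. Nop10 went its own way: it was 60.5 ± 6.27 TPM (SD, n = 4) in transgene-free wild-type ganglia and 69.4 ± 10.7 TPM (SD, n = 4) in tumors. Its edgeR log2 fold change was 0.65 (SE 0.196, adjusted p = 0.0114) against transgene-free wild-type ganglia and 0.37 (SE 0.212, adjusted p = 0.198) against Th-MYCN wild-type ganglia. The 3 other proteins of its particle, Dkc1, Nhp2 and Gar1, had log2 fold changes of 1.78, 1.46 and 1.68 in the second of these comparisons. Nop10 was singled out after its values were seen.

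RNA polymerase I and its factors differed less. All 6 genes were called higher against transgene-free wild-type ganglia, with a median log2 fold change of 1.07. Against Th-MYCN wild-type ganglia all 6 were positive and 5 of 6 were called higher, with a median of 0.68. Within the group, Polr1b and Polr1c, which encode core subunits, differed most from transgene-free wild-type ganglia, at 2.23 (SE 0.314) and 1.94 (SE 0.24). Polr1a, the largest subunit, was at 1.01 (SE 0.198). Polr1c, a subunit shared with RNA polymerase III, measured 22, 33.67, 20.08 and 27.16 TPM in transgene-free wild-type ganglia and 58.71, 79.82, 70.86 and 83.8 TPM in tumors. Its tumors lay above all ganglia. Ubtf, which binds and opens the ribosomal DNA, measured 52.93, 90.07, 70.53 and 69.36 TPM in these ganglia and 79.11, 105.13, 106.33 and 95.82 TPM in tumors. The Ubtf groups overlapped, since transgene-free wild-type replicate 2 and Th-MYCN wild-type replicate 1 exceeded the lowest tumor. Its edgeR log2 fold change was 0.86 (SE 0.195, adjusted p = 0.00192) against transgene-free wild-type ganglia and 0.67 (SE 0.212, adjusted p = 0.0253) against Th-MYCN wild-type ganglia. The latter missed the threshold on library totals alone (adjusted p = 0.0625) and with a replicate block (0.0614). Ubtf missed it with a term for sex inferred from Ddx3y RNA (0.0591). It also missed it without tumor 2 or 3 (0.0601 and 0.0516) and without Th-MYCN wild-type replicate 3 or 4 (0.117 and 0.105). Rrn3, the initiation factor that recruits the polymerase, had a log2 fold change of 1.14 (SE 0.19) against transgene-free wild-type ganglia. Polr1e, a subunit specific to this polymerase, was at 0.63 (SE 0.232) there and at 0.60 (SE 0.254, edgeR adjusted p = 0.0808) against Th-MYCN wild-type ganglia.

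A row named for the 45S pre-rRNA made by this polymerase, Rn45s, was also listed and is not a member. Products cut from this precursor share its sequence, so the row does not separate precursor from mature rRNA. The library kit named in the study's methods removes ribosomal cDNA. The level of Rn45s can move with that step, and this was not tested. Rn45s measured 9907, 20327, 17704 and 12606 TPM in transgene-free wild-type ganglia and 28173, 40296, 43642 and 33947 TPM in tumors. Th-MYCN wild-type ganglia held 33499, 18643 and 19575 TPM, so 1 of them lay within the tumor range. The edgeR log2 fold change of Rn45s in tumors was 1.67 (SE 0.412, adjusted p = 0.00344) against transgene-free wild-type ganglia and 0.96 (SE 0.444, adjusted p = 0.109) against Th-MYCN wild-type ganglia.

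The small subunit processome is the large particle that folds and cleaves the pre-rRNA to release the small subunit. All 12 of its members here rose in both comparisons, with median log2 fold changes of 1.41 and 1.15. The largest against transgene-free wild-type ganglia were Rrp9, Wdr43 and Wdr3, at 2.22 (SE 0.28), 2.17 (SE 0.317) and 2.06 (SE 0.31). Rrp9, which binds the snoRNA of the processome, measured 18.66, 29.29, 16.4 and 26.19 TPM in transgene-free wild-type ganglia and 50.03, 81.27, 89.52 and 94.29 TPM in tumors. Its tumors lay above the 37.85 TPM of the highest ganglion. Nop14, a processome component of higher abundance, measured 55.84, 54.65, 63.06 and 57.34 TPM in these ganglia and 91.7, 118.36, 117.03 and 134.94 TPM in tumors. The Nop14 difference was smaller but tight, at 1.42 (SE 0.158, edgeR adjusted p = 1.07e-05). Ddx10, an RNA helicase, changed least in the group, at 0.68 (SE 0.13). Heatr1, Utp20, Utp14a, Utp18, Wdr75, Wdr36 and the GTPase Bms1 lay between 1.01 and 1.87.

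Late maturation of the small subunit involves Nob1, the nuclease of the last cleavage, Tsr1 and Ltv1, which sit on the precursor particle, and the export factor Rrp12. All 4 rose in both comparisons, with medians of 1.46 and 1.03. Ltv1 measured 39.57, 43.78, 36.81 and 36.64 TPM in transgene-free wild-type ganglia and 68.83, 92.82, 82.08 and 83.16 TPM in tumors. It was at 37.72, 35.67 and 39.82 TPM in the transgene-free heterozygous ganglia and at 45.51, 33.01 and 44.74 TPM in the Th-MYCN wild-type ganglia. Ltv1 was thus nearly level over the 12 ganglia, with a highest value of 45.51 TPM, and separate in the tumors. It had the smallest adjusted p of all members against Th-MYCN wild-type ganglia, with an edgeR log2 fold change of 1.37 (SE 0.176, adjusted p = 8.63e-05). Rrp12, in contrast, was 27.6 ± 6.40 TPM (SD, n = 4) in transgene-free wild-type ganglia and 36.3 ± 9.37 TPM (SD, n = 4) in tumors, where tumor 1 held 22.3 TPM. It was called on the normalized counts, at 0.82 (SE 0.198, edgeR adjusted p = 0.00292).

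Among the 10 factors of 60S assembly, all rose in both comparisons, with medians of 1.55 and 1.21. Rrp1b, a nucleolar protein bound to 60S precursors, showed the largest log2 fold change of any member in both. It measured 3.63, 9.27, 4.9 and 6.37 TPM in transgene-free wild-type ganglia and 28.39, 44.49, 41.93 and 48.18 TPM in tumors. The Th-MYCN wild-type ganglia lay at 23.4, 4.44 and 13.61 TPM, so replicate 1 came close to the lowest tumor while replicate 3 was within the transgene-free range. The edgeR log2 fold change of Rrp1b was 3.14 (SE 0.475, adjusted p = 9.63e-05) against transgene-free wild-type ganglia. Rrs1, which brings the 5S ribonucleoprotein into the particle, measured 33.57, 54.27, 37.26 and 38.01 TPM in these ganglia and 59.76, 92.17, 81.81 and 83.29 TPM in tumors. Its lowest tumor was below the 62.54 TPM of Th-MYCN wild-type replicate 1. Gnl3 (nucleostemin, a nucleolar GTPase), the rRNA methyltransferase Nop2 and the assembly factor Nop16 were at 2.35, 1.89 and 1.86. Pes1, Bop1 and Wdr12 form 1 complex, PeBoW, and had log2 fold changes of 1.37 (SE 0.157), 0.96 (SE 0.164) and 0.99 (SE 0.145). Ddx18, a helicase, and Nip7 were at 1.71 and 1.39.

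The abundant nucleolar proteins completed the set. Npm1 (nucleophosmin) and Ncl (nucleolin) are histone and RNA chaperones that make up much of the nucleolus, Ddx21 is a helicase and Mybbp1a a nucleolar regulator of transcription. All 4 rose in both comparisons, with medians of 2.31 and 1.75. Npm1 measured 382.25, 726.69, 379.82 and 350.01 TPM in transgene-free wild-type ganglia and 1372.2, 2177.1, 2110.11 and 2220.05 TPM in tumors. It had the highest level of all members in every library, and its tumors lay above the 999.66 TPM of the highest ganglion. Npm1 has processed pseudogenes, and the program used divides reads that match several sequences, so its level is less certain than its rank. The edgeR log2 fold change of Npm1 was 2.49 (SE 0.33, adjusted p = 3.73e-05) against transgene-free wild-type ganglia. Mybbp1a measured 44.37, 78.02, 38.21 and 43.8 TPM in these ganglia and 116.18, 229.32, 212.27 and 216.77 TPM in tumors. Tumor 1 lay nearer to the 90.87 TPM of the highest ganglion than to the other tumors. Ncl was 190 ± 31.7 TPM (SD, n = 4) and 708 ± 112 TPM (SD, n = 4) in the same groups.

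**Figure D3:**
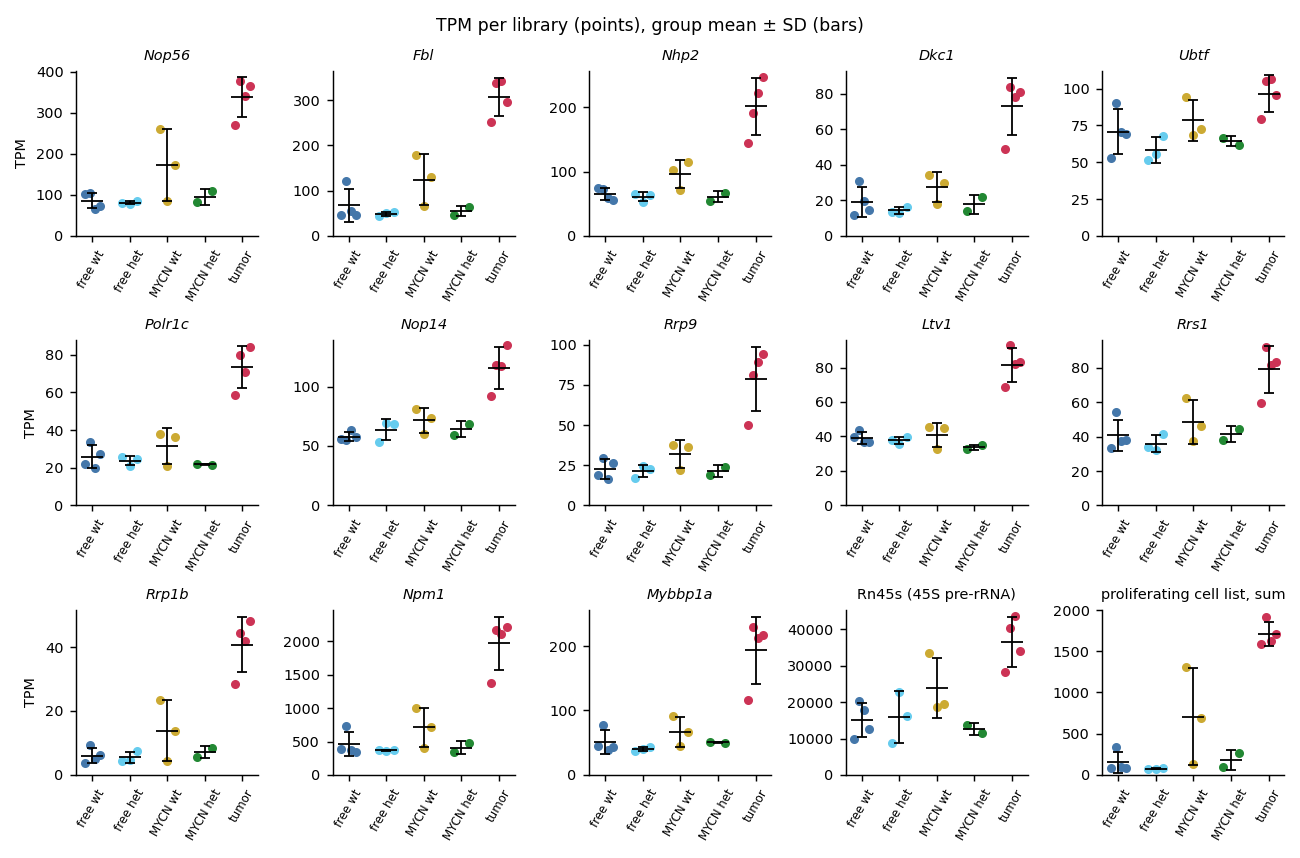
TPM of 13 members, of the 45S pre-rRNA row and of the summed proliferating cell markers in each library, with points for libraries and bars for group mean ± SD, on linear axes that start at 0. "Free" marks ganglia with no transgene, "wt" and "het" the Runx1t1 genotype; Th-MYCN wild-type ganglia are spread between the transgene-free level and the tumors, as for Npm1 at 999.66, 410.22 and 722.36 TPM.

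The third comparison asked whether the transgene alone moved these genes in ganglia of 2-week-old mice. Of 44 members, 0 passed the adjusted threshold in edgeR and 3 in DESeq2 between Th-MYCN and transgene-free ganglia, all wild type for Runx1t1, where the tools called 0.834% and 6.41% of all genes higher. The DESeq2 share of members, 3 of 44, is near that of all genes. With a term for library depth 2 members passed in edgeR, beside 1.69% of all genes called higher. The smallest adjusted p in edgeR was 0.0846, for Nop58. At an unadjusted p under 0.05, 14 of 44 members were higher and 0 lower, beside 11.7% of all genes higher. Log2 fold changes were positive for 42 members, with a median of 0.43, and negative for Rrp12 at -0.19 and Ddx10 at -0.08. The 3 largest were Rrp1b at 1.22 (SE 0.474), Nop58 at 1.13 (SE 0.31) and Nop56 at 1.07 (SE 0.317), with edgeR adjusted p of 0.182, 0.0846 and 0.103. Box C/D core genes had the largest group median, 1.07, and the processome and late 40S genes the smallest, 0.26 and 0.27.

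The 3 Th-MYCN wild-type ganglia were not alike, and the result turned on them. Runx1t1 itself measured 70.34, 7.9 and 37.44 TPM in replicates 1, 3 and 4. Replicate 3 thus lay below both Th-MYCN libraries labelled heterozygous, at 8.83 and 16.86 TPM, and the reason was not tested. Replicate 1 exceeded all 7 transgene-free ganglia in 37 of 44 members and replicate 4 in 25, but replicate 3 in 1, which held for 23.3%, 20.1% and 11.2% of all genes tested. Nop56 shows the pattern, at 260.73 TPM in replicate 1, 173.51 TPM in replicate 4 and 84.95 TPM in replicate 3, the last within the range of the transgene-free ganglia. Without replicate 3, 12 of 44 members passed in edgeR, where 8.76% of all genes were called higher, and the median log2 fold change was 0.60. Calls thus rose over all genes, and not among the members alone. Without replicate 1, 0 members and 0 of all genes passed, and the median of the members was 0.18. On the other side of the comparison, transgene-free wild-type replicate 2, the library with lymphocyte markers, was the highest of the 7 transgene-free ganglia in 33 members and in 27.9% of all genes. Without it 3 of 44 members passed beside 3.46% of all genes called higher, and the median was 0.56. The members in which Th-MYCN wild-type replicate 4 exceeded the remaining transgene-free ganglia went from 25 to 38, beside 25.6% of all genes. For replicate 3 they went from 1 to 10, beside 16.6% of all genes. For Th-MYCN heterozygous replicate 2 they went from 6 to 22, where the shares of all genes were 13.3% and 19.0%.

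**Figure D4:**
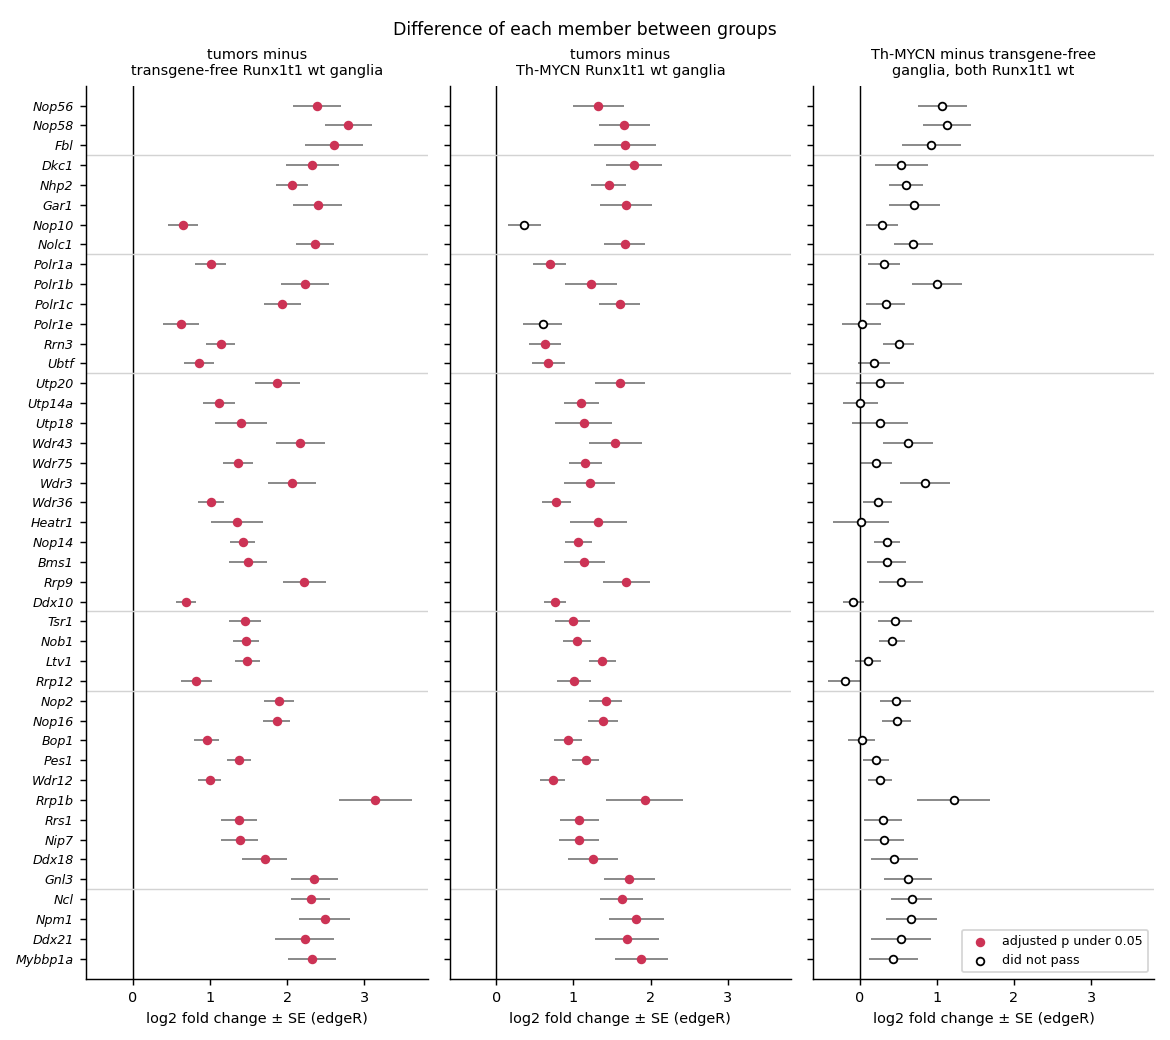
The edgeR log2 fold change ± SE of each member in 3 comparisons, in the order of the role groups, with filled points for adjusted p under 0.05. All 44 points are filled in the first panel, 42 in the second (not Nop10 and Polr1e) and 0 in the third, where 42 points lie above 0.

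Proliferating cell markers moved with the same libraries. The 10 markers summed to 1587 to 1910 TPM in tumors and to 69.08 to 333.2 TPM in transgene-free ganglia, whose highest value was that of wild-type replicate 2. Th-MYCN wild-type replicates 1, 3 and 4 were at 1306, 131.7 and 686.7 TPM. All 10 of these markers were called higher in tumors than in transgene-free wild-type ganglia, but 2 of 10 against Th-MYCN wild-type ganglia, where 42 of 44 nucleolar genes were. Their log2 fold changes in that comparison were not smaller, since they ran from 1.42 to 2.28 with a median of 1.59, against 1.24 for the nucleolar genes. In Th-MYCN against transgene-free wild-type ganglia 0 of the 10 were called by edgeR and all 10 had an unadjusted p under 0.05, with a median log2 fold change of 2.70. Fibroblast markers summed to 170.8 to 506.4 TPM in tumors and 888 to 7899 TPM in ganglia. The part of proliferation, and of neuron, glial and fibroblast content, in the nucleolar gene levels was not tested.

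Loss of 1 Runx1t1 copy was the other question of the design. In Th-MYCN ganglia, 0 of 44 members passed the adjusted threshold in edgeR, or in DESeq2, between libraries labelled heterozygous and wild type, where edgeR called 0.0% and DESeq2 0.8% of all genes lower. At an unadjusted p under 0.05, 11 members were lower and 0 higher in the heterozygous libraries, beside 7.42% of all genes lower. Log2 fold changes were negative for 42 of 44 members, with a median of -0.46, and ran from -1.31 for Fbl to 0.22 for Rrp12. Fbl measured 46.8 and 63.27 TPM in the 2 heterozygous libraries, both below the 65.36 TPM of the lowest wild-type one. Its edgeR log2 fold change was -1.31 (SE 0.481, adjusted p = 0.339). Npm1 measured 346.54 and 474.7 TPM in the heterozygous libraries, so replicate 2 lay within the wild-type range of 410.22 to 999.66 TPM. The proliferating cell markers were at 97.76 and 271.5 TPM in these libraries. Without Th-MYCN wild-type replicate 3, 1 of 44 members passed, beside 1.42% of all genes called lower, and Nop56 was at -1.35 (edgeR adjusted p = 0.0466). Without Th-MYCN wild-type replicate 1, the median of the members was -0.30 and 7 were positive. That median was -0.66 with a depth term and also with a replicate block. Both heterozygous libraries were below 20000000 counts, as was wild-type replicate 1, while wild-type replicates 3 and 4 were above.

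The remaining comparisons made no calls. In transgene-free heterozygous against wild-type ganglia 0 of 44 members passed the adjusted threshold and 0 passed at an unadjusted p under 0.05, beside 0.0% and 4.12% of all genes, with a median log2 fold change of -0.14 in edgeR. That median turned to 0.02 without transgene-free wild-type replicate 2 and to 0.09 in the libraries over 20000000 counts. Th-MYCN against transgene-free ganglia, both labelled heterozygous, gave 0 of 44 by either rule, beside 0.0% and 1.45% of all genes, with a median of 0.10. It turned to -0.15 with a replicate block (8 of 44 positive), to -0.16 with a depth term and to -0.09 without Th-MYCN heterozygous replicate 2. The test of the interaction, which asks whether the transgene effect differed between the Runx1t1 genotypes, gave 0 of 44 by either rule, beside 0.0% and 5.62% of all genes, with a median of -0.33 and a smallest adjusted p of 0.845. The median of the interaction was -0.13 without Th-MYCN wild-type replicate 1, where 17 of 44 were positive, and -0.52 without replicate 3. It was -0.61 with a replicate block and also with a depth term. DESeq2 called 0 members in these 3 comparisons, and 5, 13 and 31 genes in all. The group means of the summed TPM, 1998 ± 438 (SD, n = 4), 1791 ± 68.2 (SD, n = 3) and 1946 ± 254 (SD, n = 2) for the transgene-free wild-type, transgene-free heterozygous and Th-MYCN heterozygous ganglia, lay within 1 SD of the first. The Th-MYCN wild-type mean was 2843 ± 884 (SD, n = 3) and the tumor mean 6255 ± 1056 (SD, n = 4).

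A further 109 genes of ribosome production, such as the exosome, other processome proteins and export factors, were compared in the same fits. In tumors against transgene-free wild-type ganglia 96 of them were called higher and 2 lower, with a median log2 fold change of 1.17. The highest were Rrp15 at 3.07, Exosc8 at 2.64, Lyar at 2.56, Ppan at 2.52 and Ruvbl2 at 2.51. The exceptions were Gnl3l at -0.99 (edgeR adjusted p = 0.000824) and Sbds, a factor of late 60S maturation, at -0.43 (edgeR adjusted p = 0.0129). Gnl3l is the paralog of Gnl3, which was at 2.35. Against Th-MYCN wild-type ganglia 86 were higher and 1 lower, with a median of 0.90, and in Th-MYCN against transgene-free wild-type ganglia edgeR called 0 and DESeq2 6, with a median of 0.26. Here too edgeR's count turned on single libraries, with 16 of the 109 called without Th-MYCN wild-type replicate 3 and 3 without transgene-free wild-type replicate 2, beside the 8.76% and 3.46% of all genes. At an unadjusted p under 0.05, 22 of the 109 passed in either direction, beside 19.8% of all genes. Beside these counts stand the 27.0%, 14.0% and 0.834% of all genes called higher by edgeR, and 6.41% by DESeq2.

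Promoter sequence was available for 38 of the 44 members, as 250 bases before to 50 bases after the start of the gene from RefSeq on GRCm38.p6. The windows were searched for CACGTG, the canonical E-box to which MYC-family proteins bind as dimers with MAX, which reads the same on both strands. It was present in 9 of 38 members (23.7%), against 8.09% of the 27025 promoters and 10.9% of the 12404 promoters of genes tested here. The variant CACGCG, or CGCGTG on the other strand, was present in 13 members (34.2%), against 10.5% and 18.2%. Either was present in 20 members (52.6%), against 17.2% and 26.7%. The sites of Ltv1, Mybbp1a and Pes1 lie just after the start of the gene, and Rrn3 holds a pair of sites before it. Ltv1 and Mybbp1a are printed because they were followed library by library, Rrn3 for its pair of sites, and Nop2 and Pes1 as examples from 60S assembly, with the E-box in capitals, 5′ to 3′ on the strand of the gene.
Ltv1: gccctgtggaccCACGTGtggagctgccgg
Mybbp1a: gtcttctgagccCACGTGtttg
Pes1: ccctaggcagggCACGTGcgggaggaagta
Nop2: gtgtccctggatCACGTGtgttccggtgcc
Rrn3, distal: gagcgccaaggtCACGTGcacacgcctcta
Rrn3, proximal: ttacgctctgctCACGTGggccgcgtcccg
The Ltv1 window is chr10:13193092-13193121 on the minus strand, Mybbp1a chr11:72441355-72441376, Pes1 chr11:3963965-3963994 and Nop2 chr6:125131811-125131840 on the plus strand. The Rrn3 windows are chr16:13780472-13780501 and chr16:13780639-13780668 on the plus strand. Utp20, Tsr1, Utp18 and Wdr43 held the other matches. The 9 members with an E-box had log2 fold changes of 1.14 to 2.32, with a median of 1.48, in tumors against transgene-free wild-type ganglia, where the median of all 44 was 1.60. Against Th-MYCN wild-type ganglia they ran from 0.63 to 1.88 with a median of 1.37, where the median of all 44 was 1.24. A match in these letters is a description of the sequence, and no binding was measured here.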

How the data were processed

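RNA of 16 libraries was prepared with the SMARTer Stranded Total RNA v2 kit per the study's methods, whereas the labels name polyA RNA. Reads were aligned by the authors (STAR, mm10), and the deposited tables hold, for each gene, its expected count and its TPM as estimated by RSEM. The strand setting was not given in the sources used here. The word "Hom" after Runx1t1 in the headings of tumor and wild-type ganglia columns was read with the labels as homozygous wild-type Runx1t1. Expected counts were rounded, and 16665 genes passed edgeR's filterByExpr. TMM factors and edgeR 4.0.16 quasi-likelihood tests (R 4.3.3) used 1 fit of the 5 groups and 8 comparisons, with Benjamini-Hochberg adjustment over all genes tested. DESeq2 1.42.0 was an alternative. Levels are log2(TPM + 1). The pipeline was checked on simulated counts. Other normalizations, filters, covariates and left-out libraries were tried.

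The 44 members and the pathway and marker lists were chosen with earlier results of these data known. Members shown library by library were, in each of 7 role groups, the one with the highest mean TPM and the one with the largest log2 fold change in tumors against Th-MYCN wild-type ganglia. Others were named to cover each role or for their values. Nothing states that libraries of a group come from different litters, so p-values measure the spread between these samples. Protein sequences, and promoters of 6 members, were not used here.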

Additional observations from a re-analysis of the deposited data

Results flagged for a closer look

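Of 30 checks for a library far from the rest of its group of 4, which by chance mark about 5 in 100, 6 were positive, and they fell on 2 libraries. Transgene-free wild-type replicate 2 was the highest of its group in Fbl at 121.52 TPM, Npm1 at 726.69 TPM and Mybbp1a at 78.02 TPM. The gap to the next library took up 0.867, 0.914 and 0.845 of the range of the group. This library also carried 738.7 TPM of lymphocyte markers and 333.2 TPM of proliferating cell markers, whose part was not tested. Tumor 1 was the lowest of its group in Dkc1 at 48.99 TPM, Npm1 at 1372.2 TPM and Mybbp1a at 116.18 TPM, with gaps of 0.841, 0.870 and 0.849 of the range.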

How the results depend on the processing

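In the 3 comparisons with tumors every one of the 44 members kept a positive log2 fold change in all fits to counts. On the TPM scale Nop10 was the exception, at -0.03 against Th-MYCN wild-type ganglia. Members called against transgene-free wild-type and Th-MYCN wild-type ganglia numbered 43 to 44 and 36 to 43 with 1 library left out. Over all genes these fits called 8844 to 9712 and 3549 to 6755 in either direction. Against Th-MYCN heterozygous ganglia, 42 to 44 members and 7015 to 8275 of all genes were called with a library of another group left out. Leaving out 1 of the 2 heterozygous libraries kept the median log2 fold change at 1.71 or 1.94. Under other settings, members called in these 3 comparisons numbered 42 to 44, 39 to 43 and 42 to 44. Calls over all genes there were 8016 to 10002, 4264 to 7101 and 6480 to 8348. The lowest count against Th-MYCN wild-type ganglia, 36, came without replicate 3 of that group, where calls over all genes fell from 5755 to 3549. In Th-MYCN against transgene-free wild-type ganglia the count of 0 became 3 with DESeq2 and 2 with a depth term, and 0 to 12 with one library left out. Calls over all genes in either direction were 156 in the main fit, and 1289, 308 and 0 to 1811 in these fits. Heterozygous against wild-type Th-MYCN ganglia gave 0 to 1 with 1 Th-MYCN wild-type library left out, beside 0 to 320 of all genes. Log2 fold changes of Ubtf, Ltv1 and Rrs1 in Th-MYCN against transgene-free wild-type ganglia ran from -0.0529 to 0.372, -0.0441 to 0.266 and -0.0123 to 0.508 over the left-out libraries, negative without Th-MYCN wild-type replicate 1. The difference in the median member rose from 1.21 to 1.62 (tumors against transgene-free wild-type) and from 0.92 to 1.24 (against Th-MYCN wild-type) on log2(CPM + 1) in place of TPM, a change of both scaling and unit, whose separate parts were not tested. The median correlation of deviations from the group mean was -0.01 over 25 same-number pairs and -0.02 over 76 others. Deviations cancel within each group, so these medians cannot decide whether replicate numbers mark a shared batch. Among ganglia, replicates 1 and 2 were below 20000000 counts and replicates 3 and 4 above, so replicate number and depth cannot be told apart there. With a replicate block 44, 41 and 42 members were called in the tumor comparisons above and 0 in the Th-MYCN one. Over all genes that fit called 9298, 5038 and 7576 in either direction in the tumor comparisons and 0 in the Th-MYCN one. Medians that turned sign in comparisons without calls are given with them. Named members were not recomputed in 3 comparisons without calls. Only-deep fits gave no value for Th-MYCN heterozygous ganglia, and with 1 of its libraries left out the spread of the other was taken from the pooled fit.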
